A study of Homo sapiens with 12 samples.

Results

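Loss of ANKRD52 together with CSNK1A1 was set against loss of AGO2 in HCT116, an established human colorectal carcinoma cell line. The comparison covered 6 of the study's 12 polyA RNA libraries, namely 3 labelled replicates with the genotype ANKRD52;CSNK1A1_KO, called the double knockout here, and 3 with the genotype AGO2_KO. The remaining libraries came from the parental line and from an ANKRD52_KO line, 3 of each. All were unedited or edited HCT116 cells harvested 48 hours after seeding, with no drug or other agent named. Whether a knockout was 1 clone or a pool, and whether replicates were separate cultures, is not given in the sources used here, so the p-values reflect spread among libraries that may be no more than technical. Of 12756 genes in the authors' tables, the 11877 with a mean level of at least 1 log2 CPM (counts scaled to the library total) were compared.

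MicroRNAs work inside AGO2, an Argonaute protein, which binds matching sites in 3' untranslated regions (UTRs) of messages. There it recruits TNRC6 proteins and through them the deadenylases that shorten and silence the message. Target-bound AGO2 is phosphorylated on a cluster of serines by casein kinase 1 alpha, the product of CSNK1A1, and the phosphates are removed by the PP6 phosphatase, in which ANKRD52 is a regulatory subunit. CSNK1A1 also works outside this cycle: it makes the first phosphorylation that marks beta-catenin for destruction, and it restrains p53 through MDM2 and MDM4. The comparison therefore sets loss of both enzymes acting on AGO2 against loss of AGO2 itself.

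The value for each gene was the log2 fold change of the double knockout over the parental line minus that of the AGO2 knockout over the same parental line, so the parental level drops out. A value above 0 means a higher level in the double knockout. It was tested with a normal test on an approximate standard error (SE) rebuilt from the authors' statistics, and genes were called at a Benjamini-Hochberg adjusted p under 0.05 over all 11877 genes. No value of a single library entered the comparison, and library depth is unknown. Levels in CPM are group values implied by the authors' mean level and 3 fold changes if the 4 groups count equally, and the error belongs to the difference.

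By this test 5066 genes, 42.7% of those compared, differed between the double and the AGO2 knockout, and 2646 when the squared errors were summed. The double knockout was higher for 2568 genes (21.6%) and lower for 2498 (21.0%), shares against which the counts of each list below stand, and the median difference over all genes was -0.0011. Large differences leaned one way: of 932 called genes with a difference of at least 1 in size, 703 were higher and 229 lower in the double knockout. The median called gene differed 1.44-fold. Some calls rest on genes nearly silent in 1 group, since 154 of the genes called higher had an implied level under 2 CPM in the AGO2 knockout, and 75 of those called lower were under 2 CPM in the double knockout. Such genes passed the expression filter through the groups in which they were high. Against parental cells, the authors' deposited tables call 778 genes in the AGO2 knockout and 5486 in the double knockout at an adjusted p under 0.05.

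**Figure D1:**
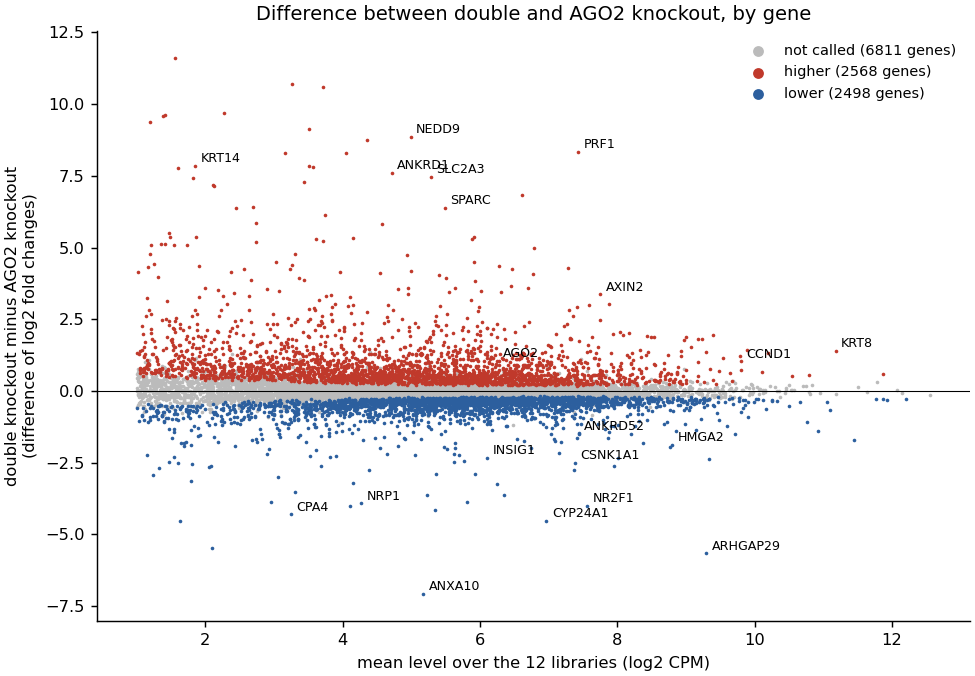
Each point is 1 of 11877 genes, with the mean level over the 12 libraries in log2 CPM on the x axis and the log2 difference, double minus AGO2 knockout, on the y axis. Red points (2568) were called higher and blue points (2498) lower in the double knockout, and the tall upper fringe shows genes such as PRF1 (8.34) and NEDD9 (8.86) that were almost absent in the AGO2 knockout.

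The targeted genes differed between the groups in the directions of the labels, though for ANKRD52 the RNA level does not by itself show the edit. CSNK1A1 stood at 216 CPM in the AGO2 knockout and 38.2 CPM in the double knockout, against 204 CPM in the parental line, a 5.65-fold difference (difference -2.50, SE 0.34, adjusted p = 1.06e-11). ANKRD52 stood at 279 CPM in the AGO2 knockout and 98.9 CPM in the double knockout, against 155 CPM in the parental line (difference -1.50, SE 0.14, adjusted p = 6.32e-25). AGO2 stood at 39 CPM in the AGO2 knockout and 80.9 CPM in the double knockout, against 82 CPM in the parental line (difference 1.05, SE 0.36, adjusted p = 0.0102). CSNK1A1 and ANKRD52 were thus below parental in the double knockout, AGO2 was below parental in the AGO2 knockout, and ANKRD52 was above parental in the AGO2 knockout. The authors' log2 fold changes of ANKRD52 against parental were 0.85 in the AGO2 and -0.65 in the double knockout, so both groups contributed to its difference. In the ANKRD52 knockout the RNA of ANKRD52 was near parental, at 159 CPM (log2 fold change 0.035, not called by the authors). The AGO2 difference had a wider error than 99% of the 500 genes nearest to it in mean level, and it missed the threshold when the squared errors were summed (adjusted p = 0.119) and with a t distribution of 8 degrees of freedom (adjusted p = 0.0591). It lies among neighbours on distal chromosome 8 that were also lower in the AGO2 knockout, described with chromosomal position. RNA levels do not measure the proteins.

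**Figure D2:**
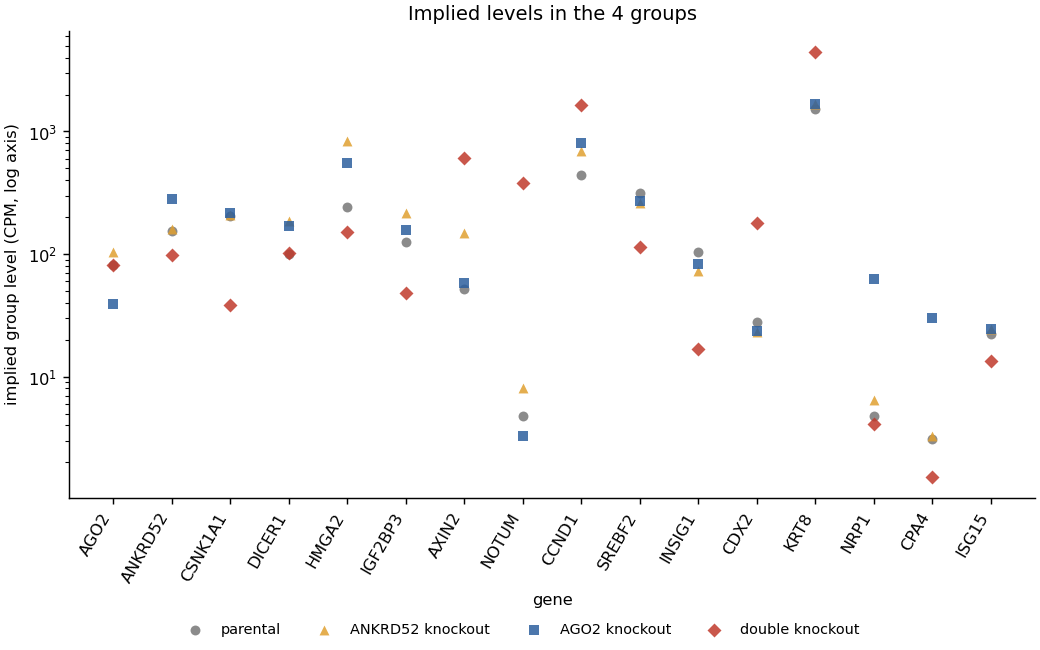
Points give the implied level in CPM, on a log axis, of 16 genes in the parental line (grey circles), the ANKRD52 knockout (yellow triangles), the AGO2 knockout (blue squares) and the double knockout (red diamonds). CSNK1A1 is lowest in the double knockout at 38.2 CPM, AGO2 is lowest in the AGO2 knockout at 39 CPM, and NRP1 and CPA4 are high in the AGO2 knockout.

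The silencing machinery was not called more often than genes in general. Of 12 genes of microRNA processing and silencing other than AGO2, 2 were called higher and 3 lower in the double knockout, near the 42.7% called over all genes. DICER1, which cuts microRNA precursors, stood at 169.9 CPM in the AGO2 knockout and 102 CPM in the double knockout, against 99.5 CPM in the parental line (difference -0.73, SE 0.092, adjusted p = 5.85e-14), above parental in the AGO2 knockout and near it in the double. The scaffold gene TNRC6A was lower in the double knockout (difference -0.43, SE 0.10, adjusted p = 6.97e-05), as was TNRC6B (-0.20, with adjusted p = 0.198 when the squared errors were summed), whereas TNRC6C was higher (difference 0.37, SE 0.095, adjusted p = 0.000424). DROSHA, which makes the first cut in the nucleus, was higher by 0.25 (adjusted p = 0.0071), a call lost when the squared errors were summed (adjusted p = 0.101). The other Argonaute genes missed the threshold: AGO1 differed by 0.052 with a 95% interval of -0.12 to 0.23, and AGO3 by -0.15 with an interval of -0.36 to 0.061.

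The 6 PP6 genes other than ANKRD52 all had values below 0, with a median of -0.31, and 3 were called lower, none higher, against 21.0% lower over all genes. With a mean level of at least 3 log2 CPM the median was -0.19. The catalytic subunit PPP6C stood at 111 CPM in the AGO2 knockout and 81.9 CPM in the double knockout (difference -0.44, SE 0.084, adjusted p = 1.99e-06), and the regulatory subunit PPP6R2 at 51.4 CPM in the AGO2 knockout and 35 CPM in the double knockout (difference -0.55, SE 0.092, adjusted p = 2.82e-08). ANKRD44, a paralogue of ANKRD52, was lower (difference -0.48, SE 0.20, adjusted p = 0.0471) and lost its call when the squared errors were summed (adjusted p = 0.236). Of 9 casein kinase 1 genes and their FAM83 anchors, 1 was called higher and 2 lower. FAM83H, an anchor of casein kinase 1 on keratin filaments, was higher (difference 0.83, SE 0.18, adjusted p = 4.21e-05), and the kinases CSNK1D (0.059) and CSNK1E (0.24) were not called. FAM83G (-0.25, adjusted p = 0.0491), another anchor, was 1 of the 2 lower members and CSNK1A1L the other. The FAM83G call was lost with summed squared errors (adjusted p = 0.241), the larger error (0.0503), the t distribution (0.117) and centring on the median (0.0504). CSNK1A1L and the pseudogene CSNK1A1P1 were lower by -3.21 and -5.46 on the log2 scale, but both resemble CSNK1A1 closely, so reads of that gene could have been counted for them. Among 23 deadenylation and decapping genes, 2 were called higher (CNOT8 at 0.32, CNOT10 at 0.25) and 3 lower (CNOT6L at -0.36, the exonuclease XRN1 at -0.34, the decapping enzyme DCP2 at -0.25), a smaller share than the 42.7% over all genes. When the squared errors were summed, all 5 lost their calls (CNOT8 adjusted p = 0.0935, CNOT10 0.151, CNOT6L 0.112, XRN1 0.059 and DCP2 0.196).

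A microRNA recognises its targets mainly through the seed, bases 2 to 8 counted from its 5′ end. The mature sequences of 4 families whose target lists were examined follow, from RefSeq (GRCh38.p14), with the seed in capitals.
let-7a: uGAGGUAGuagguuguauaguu
miR-17: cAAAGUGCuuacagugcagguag
miR-16: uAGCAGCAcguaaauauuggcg
miR-200c: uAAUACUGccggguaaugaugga

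Among let-7 targets, 3 well-known ones were lower in the double than in the AGO2 knockout. HMGA2, an oncofetal chromatin protein held down by let-7, stood at 558 CPM in the AGO2 knockout and 151 CPM in the double knockout, a 3.69-fold difference, with 243 CPM in the parental line (difference -1.88, SE 0.16, adjusted p = 1.03e-29). IGF2BP3 stood at 158 CPM in the AGO2 knockout and 47.8 CPM in the double knockout (difference -1.73, SE 0.61, adjusted p = 0.0146) and IGF2BP2 at 272 CPM in the AGO2 knockout and 124 CPM in the double knockout (difference -1.13, SE 0.19, adjusted p = 6.21e-08), both oncofetal RNA-binding proteins. Against parental cells, HMGA2 was called above in the AGO2 and below in the double knockout in the authors' deposited tables, IGF2BP2 was called only as lower in the double, and IGF2BP3 was called in neither. With the squared errors summed, IGF2BP3 lost its call (adjusted p = 0.139). All 3 carry a seed match in the 3′ UTR, HMGA2 4 of them, and 2 of its matches are shown with the single ones of IGF2BP2 and IGF2BP3, from GENCODE 29 on GRCh38, as RNA-sense DNA with the match to the seed in capitals.
HMGA2, chr12:65963299-65963320, plus strand: ccaacgttcgatttCTACCTCa
HMGA2, chr12:65964534-65964555, plus strand: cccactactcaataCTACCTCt
IGF2BP2, chr3:185644220-185644241, minus strand: acacacagaagaagCTACCTCa
IGF2BP3, chr7:23311795-23311816, minus strand: gcatttttactcaaCTACCTCa

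The let-7 list held called members on both sides. Of 24 members compared, 4 were called higher and 7 lower, against 21.6% and 21.0% over all genes, and the median was -0.048. A seed match was found in 20 of the 23 members with a 3′ UTR, against 10.5% of all genes with one, and of these 20 members 6 were called lower, 3 higher and 11 not called. ARID3A, a transcription factor with a pair of matches, was higher in the double knockout (difference 1.02, SE 0.16, adjusted p = 5.46e-09), and NR6A1, an orphan nuclear receptor with 5 matches, differed by -0.055 (adjusted p = 0.801). No match was found in the DICER1 3′ UTR used here, although the gene is on the list and its call stands above.

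The other target lists held members on both sides as well, and their counts stand against 21.6% called higher and 21.0% called lower over all genes. Of 28 miR-17 family targets, 5 were called higher and 8 lower, with a median of -0.061: the repressor HBP1 (-0.89) and the actin regulator LIMK1 (-0.81) were lower, and the pyrophosphate transporter ANKH (0.83) and the receptor BMPR2 (0.55) higher. Of 18 miR-15/16 targets, 3 were higher and 3 lower (median 0.066), with the growth factor FGF2 lower by -1.99 and the cyclin CCND1 higher by 1.04, a call lost when the squared errors were summed (adjusted p = 0.0561). Of 17 miR-200 targets, 4 were higher and 3 lower (median 0.11). ZEB1, the repressor of epithelial genes that miR-200 targets most strongly, stood at 15.2 CPM in the AGO2 knockout and 7.12 CPM in the double knockout and missed the threshold (difference -1.10, SE 0.52, adjusted p = 0.0772). QKI, CFL2 and SEC23A, which act in splicing, actin turnover and vesicle budding, were lower by -0.63, -0.77 and -0.56. RIN2, which acts on the endosomal GTPase RAB5, was higher by 1.83. Of 15 miR-19 targets, 4 were higher and 1 lower (median 0.025), led by the kinase SGK1 (2.90), with the deubiquitinase CYLD (-0.49) as the lower one. Of 23 miR-21 targets, 7 were higher and 3 lower (median 0.13), with SMAD7 (2.53), SPRY1 (2.52) and TIMP3 (1.56) higher and PDCD4 (-0.96) lower. 

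Seed matches were then counted in the 3′ UTRs of all 11193 compared genes that had one of at least 50 bases, for 19 families chosen as expressed in epithelial cells and 7 control families of other tissues, such as miR-122 of liver. Genes with a match were very slightly higher in the double knockout in every family. The median with a match minus that without was 0.039 over the 19 expressed families, ranging from 0.022 for miR-26 to 0.074 for miR-34, and 0.041 over the 7 control families, ranging from 0.027 to 0.061. The control families thus gave the same size of value as the expressed ones. Genes with a longer 3′ UTR were also slightly higher in the double knockout, with medians of -0.058, -0.0026 and 0.054 from the shortest to the longest tercile. Over the same genes the difference had a rank correlation of 0.12 with UTR length and of -0.15 with mean level. No list was compared with genes of like level. Among the 1188 genes in the middle tercile of both UTR length and GC content, the values scattered around 0, with a median of -0.0024 over expressed and -0.0059 over control families. The values of the expressed families overlapped those of the control families in both sets.

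**Figure D3:**
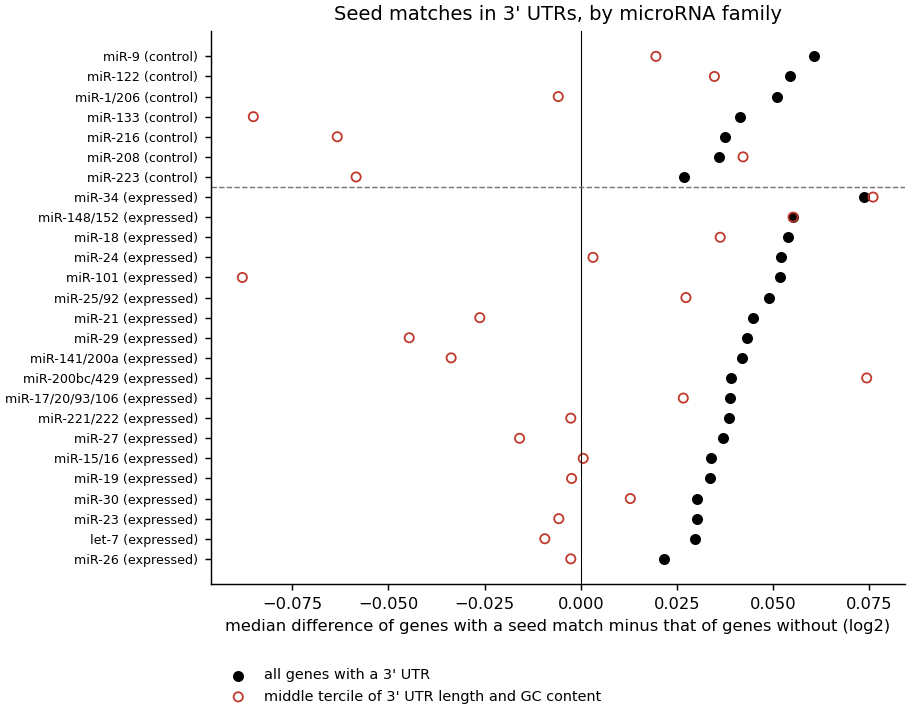
Each row is 1 of 26 microRNA families, with 7 control families above the dashed line and 19 expressed families below it, and the x axis is the median log2 difference of genes with a seed match minus that of genes without. Filled points, over all 11193 genes, lie between 0.022 and 0.074 for both kinds, and open points, over the 1188 genes of middle length and GC content, scatter on both sides of 0.

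Wnt target genes were among the clearest differences. Beta-catenin, when it escapes destruction, joins TCF/LEF factors and turns on a feedback set that includes AXIN2, NKD1, ZNRF3, NOTUM and SP5. Of 22 targets compared, 14 were called higher and 3 lower in the double knockout, against 21.6% and 21.0% over all genes, with a median of 1.36. AXIN2, a scaffold of the destruction complex, stood at 58 CPM in the AGO2 knockout and 602 CPM in the double knockout (difference 3.38, SE 0.34, adjusted p = 3.16e-21). NOTUM, a secreted enzyme that inactivates Wnt ligands, stood at 3.28 CPM in the AGO2 knockout and 377 CPM in the double knockout (difference 6.84, SE 0.72, adjusted p = 1.04e-19). The feedback genes NKD1 (3.16) and ZNRF3 (2.42), the factor TCF7 (1.29) and the cyclin CCND1 (1.04) were higher as well. The secreted antagonist DKK1 went the other way, from 290.2 to 43.2 CPM (difference -2.75, SE 0.55, adjusted p = 6.5e-06), as did the adhesion receptor CD44 (-1.50) and the factor TCF7L2 (-0.99). MYC did not pass the test, with a difference of -0.019 and a 95% interval of -0.63 to 0.59, nor did RNF43 (1.13, adjusted p = 0.0652). The authors' deposited tables put the list's median at -0.018 in the AGO2 and 1.42 in the double knockout, both against parental cells.

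SP5, a transcription factor gene that beta-catenin activates directly, stood at 1.86 CPM in the AGO2 knockout and 18.7 CPM in the double knockout (difference 3.33, SE 0.27, adjusted p = 7.47e-34). Its promoter carries 3 matches to the TCF/LEF letters CTTTGAA or CTTTGAT on either strand, printed in capitals, a description and not a test of binding (RefSeq, chr2:170715087-170715386, plus strand, GRCh38.p14, 250 bases before to 50 after the start).
SP5: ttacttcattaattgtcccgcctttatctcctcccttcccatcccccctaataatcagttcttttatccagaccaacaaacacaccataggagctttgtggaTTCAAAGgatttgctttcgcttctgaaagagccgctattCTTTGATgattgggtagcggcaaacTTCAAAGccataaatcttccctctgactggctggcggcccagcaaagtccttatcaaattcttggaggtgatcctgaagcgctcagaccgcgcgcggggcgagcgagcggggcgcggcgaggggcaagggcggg
Matches to these letters were found in 3.57% of the 8847 compared genes with a promoter sequence and in 2 of the 13 Wnt targets that had one, SP5 and DKK1.

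The genes of the destruction complex itself differed little. Of 13, none was called higher and 3 were called lower, all ubiquitin ligase or Dishevelled genes: BTRC (-0.20), FBXW11 (-0.21) and DVL1 (-0.21). All 3 lost the call when the squared errors were summed (adjusted p = 0.242, 0.191 and 0.236). Beta-catenin's own gene CTNNB1 stood at 393 CPM in the AGO2 knockout and 373 CPM in the double knockout, with an interval of the difference from -0.25 to 0.091.

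Genes activated by p53, the transcription factor that answers DNA damage, were higher in the double knockout more often than lower. Of 38 compared, 18 were called higher and 2 lower, against 21.6% and 21.0% over all genes, and the median was 0.35. MDM2, the ubiquitin ligase that limits p53, stood at 378 CPM in the AGO2 knockout and 740.0 CPM in the double knockout (difference 0.97, SE 0.11, adjusted p = 6.45e-17). PHLDA3, an inhibitor of AKT, stood at 21.6 CPM in the AGO2 knockout and 104 CPM in the double knockout (difference 2.26, SE 0.22, adjusted p = 4.29e-22), and INPP5D, a lipid phosphatase mostly known from blood cells, at 5.69 CPM in the AGO2 knockout and 54.6 CPM in the double knockout (difference 3.26, SE 0.35, adjusted p = 2.87e-19). ZMAT3, an RNA-binding p53 target, was higher by 0.89. The cell cycle inhibitor CDKN1A did not follow, at 359 CPM in the AGO2 knockout and 299 CPM in the double knockout, against 143 CPM in the parental line (difference -0.26, SE 0.16, adjusted p = 0.165). In the authors' deposited tables the list's median was 0.46 in the AGO2 and 0.72 in the double knockout against parental cells, so both lay above 0. Among 10 regulators of p53, 2 were called higher and 3 lower. The cell cycle inhibitor gene CDKN2A (-1.004) and the checkpoint kinase gene CHEK2 (-0.37) were among the lower ones, and TP73 (0.34) and RFWD2 (0.27) were higher. MDM4, a partner of casein kinase 1 alpha, differed by 0.0098 with an interval of -0.23 to 0.25. When the squared errors were summed, TP73, RFWD2 and CHEK2 lost their calls (adjusted p = 0.104, 0.219 and 0.237).

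Sterol and fatty acid synthesis genes were lower in the double knockout almost throughout. SREBF2 encodes the factor that switches on the cholesterol pathway when sterols run short. Of 33 genes compared, 29 were called lower and none higher, against 21.0% and 21.6% over all genes, with a median of -0.67. INSIG1, the sterol sensor that retains SREBF2 protein in the endoplasmic reticulum, stood at 83.3 CPM in the AGO2 knockout and 16.7 CPM in the double knockout, a 5-fold difference (difference -2.32, SE 0.11, adjusted p = 6.34e-103). The isoprenoid enzyme gene IDI1 stood at 102 CPM in the AGO2 knockout and 32.1 CPM in the double knockout (difference -1.67, SE 0.12, adjusted p = 1.74e-42), the sterol cyclase gene LSS at 85.7 CPM in the AGO2 knockout and 36.5 CPM in the double knockout (difference -1.23, SE 0.084, adjusted p = 1.68e-46), and SREBF2 itself at 269.6 CPM in the AGO2 knockout and 115 CPM in the double knockout (difference -1.23, SE 0.093, adjusted p = 1.86e-37). The synthase gene HMGCS1 (-1.24) and the desaturase gene SCD (-1.41) were also lower. SQLE, PMVK and FADS2 were among the 4 genes not called. Against parental cells, the authors' deposited tables give the list a median of -0.17 in the AGO2 and -1.03 in the double knockout. The SREBF2 promoter holds the sterol response element TCACCCCAC, in capitals, which was found in 0.362% of compared promoters and in 1 of 25 promoters of this list, read on both strands (RefSeq, chr22:41832855-41833154, plus strand, GRCh38.p14).
SREBF2: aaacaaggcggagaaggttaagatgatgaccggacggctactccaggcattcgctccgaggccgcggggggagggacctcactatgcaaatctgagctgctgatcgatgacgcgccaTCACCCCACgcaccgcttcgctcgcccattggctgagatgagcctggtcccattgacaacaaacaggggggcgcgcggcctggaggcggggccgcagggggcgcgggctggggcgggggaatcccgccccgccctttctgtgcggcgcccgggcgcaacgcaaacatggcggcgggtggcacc

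**Figure D4:**
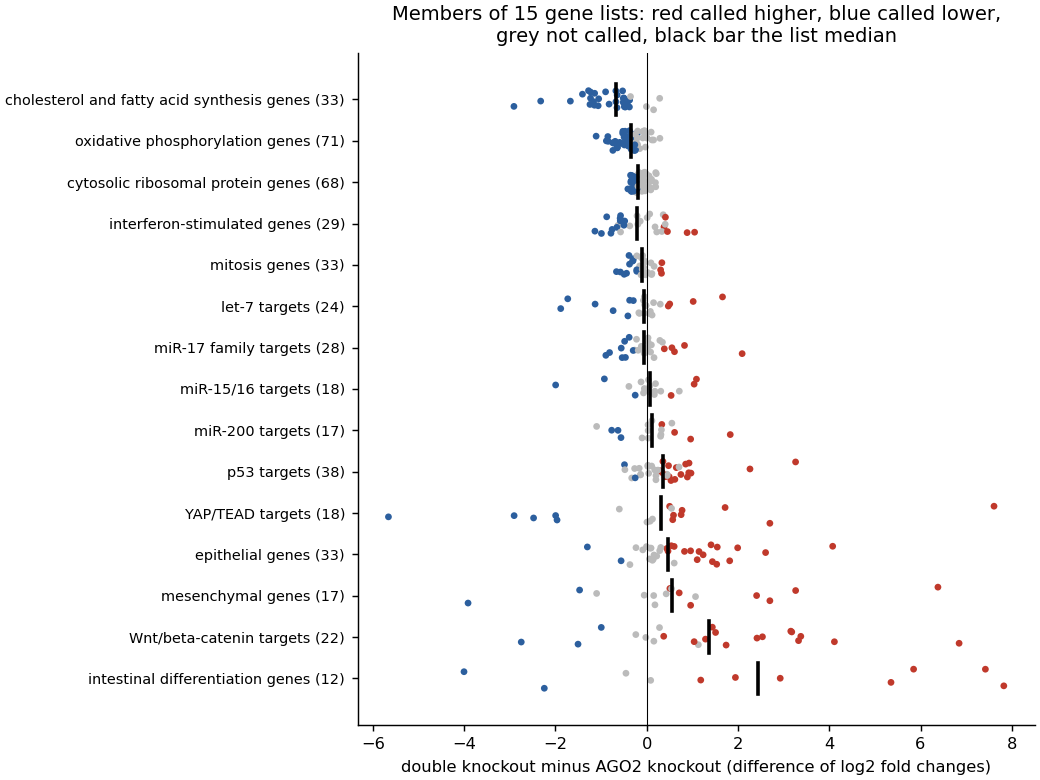
Each point is a member of 1 of 15 gene lists, placed by its log2 difference, double minus AGO2 knockout, with red called higher, blue called lower, grey not called and a black bar at the list's median. The sterol list lies almost wholly below 0 and the Wnt, intestinal, epithelial and mesenchymal lists mostly above it, while the microRNA target lists lie on both sides. HAS2 and TSPAN8, too low in the AGO2 knockout for a fold, are left out as points.

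Epithelial genes were called higher in the double knockout more often than lower. Of 33 compared, 17 were higher, 2 lower and 14 not called, against 21.6% higher and 21.0% lower over all genes, with a median of 0.47. CDH1, the adhesion protein E-cadherin, stood at 78.3 CPM in the AGO2 knockout and 312 CPM in the double knockout (difference 1.99, SE 0.42, adjusted p = 1.76e-05). GRHL2, a factor that maintains epithelial identity, stood at 19.2 CPM in the AGO2 knockout and 67.6 CPM in the double knockout, against 52.8 CPM in the parental line (difference 1.82, SE 0.57, adjusted p = 0.00512). The keratin gene KRT8 stood at 1660.3 CPM in the AGO2 knockout and 4412 CPM in the double knockout (difference 1.41, SE 0.29, adjusted p = 9.57e-06), KRT19 at 679 CPM in the AGO2 knockout and 1601 CPM in the double knockout (difference 1.24, SE 0.21, adjusted p = 6.5e-08), and KRT23 at 21 CPM in the AGO2 knockout and 355 CPM in the double knockout (difference 4.08, SE 0.40, adjusted p = 2.52e-22). The factor OVOL2 was higher by 1.55. The GRHL2 call was lost with the squared errors summed (adjusted p = 0.0869). The tight junction gene CLDN3 (-1.30) and the splicing regulator ESRP2 (-0.56) were lower, and EPCAM was not called (0.29, adjusted p = 0.206). The authors' deposited tables place the list's median below parental in the AGO2 knockout (-0.27) and above it in the double (0.15).

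Mesenchymal genes were likewise called higher in the double knockout more often than lower, with large differences in both directions. Of 17 compared, 8 were called higher and 2 lower, against 21.6% and 21.0% over all genes, with a median of 0.54. NRP1, a coreceptor of semaphorins and VEGF, stood at 62 CPM in the AGO2 knockout and 4.12 CPM in the double knockout, against 4.77 CPM in the parental line (difference -3.91, SE 0.91, adjusted p = 0.000109). The filament gene VIM was lower too, at 10.7 CPM in the AGO2 knockout and 3.87 CPM in the double knockout (difference -1.47, SE 0.59, adjusted p = 0.0316), a call lost when the squared errors were summed (adjusted p = 0.198). SPARC, a matrix glycoprotein, stood at 1.11 CPM in the AGO2 knockout and 92.9 CPM in the double knockout, TAGLN, an actin-binding protein of smooth muscle, at 1.21 CPM in the AGO2 knockout and 11.6 CPM in the double knockout, and S100A4, a calcium-binding protein, at 42.3 CPM in the AGO2 knockout and 225 CPM in the double knockout, all called higher. HAS2, a hyaluronan synthase, reached 51 CPM in the double knockout and lay under the level of 3 reads in the AGO2 knockout, so no fold is given. TAGLN was near 1 CPM in the other 3 groups, so TAGLN and HAS2 passed the expression filter through their high groups, and SPARC also stood at 84.7 CPM in the ANKRD52 knockout. The other 7 members were not called.

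Intestinal differentiation genes had a median of 2.44, with 8 of 12 called higher and 2 lower, against 21.6% and 21.0% over all genes. Their median was 1.56 with a mean level of at least 3 log2 CPM. CDX2, the homeobox factor that specifies intestine, stood at 23.4 CPM in the AGO2 knockout and 178 CPM in the double knockout (difference 2.93, SE 0.12, adjusted p = 1.7e-129), and KLF5, a factor of crypt cells, at 163 CPM in the AGO2 knockout and 626 CPM in the double knockout (difference 1.94, SE 0.15, adjusted p = 5.44e-34). CEACAM1, an adhesion molecule of the brush border, stood at 1.66 CPM in the AGO2 knockout and 67.9 CPM in the double knockout (difference 5.35, SE 0.36, adjusted p = 1.22e-46). DPEP1, a membrane dipeptidase, went the other way, at 26 CPM in the AGO2 knockout and 1.62 CPM in the double knockout (difference -4.002, SE 0.41, adjusted p = 1.27e-20). Of the 12 members, 5 had an implied level under 2 CPM in the AGO2 knockout and passed the filter through other groups. The alkaline phosphatases ALPP (7.82) and ALPPL2 (7.42) share long stretches of sequence, so their counts may not be separate.

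Interferon-stimulated genes, the set switched on by antiviral signalling, were lower in the double than in the AGO2 knockout for 11 of 29 members and higher for 5, against 21.0% and 21.6% over all genes, with a median of -0.21. With a mean level of at least 3 log2 CPM the median was -0.50. Against parental cells, the authors' fold changes gave the list a median of 0.42 in the AGO2 and 0.15 in the double knockout, so both lay above 0. DDX60, an RNA helicase, stood at 9.89 CPM in the AGO2 knockout and 4.51 CPM in the double knockout (difference -1.13, SE 0.18, adjusted p = 9.87e-09). ISG15, a ubiquitin-like modifier, stood at 24.5 CPM in the AGO2 knockout and 13.3 CPM in the double knockout (difference -0.88, SE 0.15, adjusted p = 9.58e-08), OAS3, a sensor of double-stranded RNA, at 121 CPM in the AGO2 knockout and 76.7 CPM in the double knockout (difference -0.65, SE 0.10, adjusted p = 2.91e-10), and B2M, the light chain of HLA class I, at 401 CPM in the AGO2 knockout and 233 CPM in the double knockout (difference -0.78, SE 0.11, adjusted p = 1.91e-10). The higher members were IRF7 (1.05), ISG20 (0.89), HERC6 (0.46), HLA-B (0.41) and DDX58 (0.38), the last 3 of which lost their calls with the squared errors summed (adjusted p = 0.191, 0.109 and 0.236). The sensor TLR3 stood at 1.57 CPM in the parental line, 5.96 CPM in the AGO2 knockout and 4.61 CPM in the double knockout, and the knockouts' difference did not pass the test (difference -0.37, SE 0.35, adjusted p = 0.413).

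A promoter element named for the interferon response was found in most, not all, of these promoters. The list is defined by that same response, so this share is not independent of the list. The core TTCNNTTTC of the interferon response element, where N is any base, was found on either strand in 15 of the 23 list members with a promoter sequence and in 5.98% of all compared promoters. The median difference was -0.57 for the 15 members with a match, of which 8 were called lower and 1 higher, and 0.038 for the 8 without. Matches can overlap, as in ISG15. DDX60 and ISG15, the called members above, are shown with the matches in capitals (RefSeq, GRCh38.p14; ISG15 at chr1:1013247-1013546, plus strand; DDX60 at chr4:168318703-168319002, minus strand).
ISG15: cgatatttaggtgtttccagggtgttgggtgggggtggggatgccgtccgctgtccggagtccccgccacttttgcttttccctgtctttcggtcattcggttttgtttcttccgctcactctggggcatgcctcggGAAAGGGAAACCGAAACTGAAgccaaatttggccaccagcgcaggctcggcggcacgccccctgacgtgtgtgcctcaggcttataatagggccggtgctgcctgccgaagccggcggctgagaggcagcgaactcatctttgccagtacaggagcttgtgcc
DDX60: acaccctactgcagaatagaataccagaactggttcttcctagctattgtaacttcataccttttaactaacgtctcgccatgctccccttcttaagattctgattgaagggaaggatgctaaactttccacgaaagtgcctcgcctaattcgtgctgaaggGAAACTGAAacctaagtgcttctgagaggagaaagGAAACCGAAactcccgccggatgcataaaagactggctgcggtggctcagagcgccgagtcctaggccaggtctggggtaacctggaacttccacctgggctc

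Genes of oxidative phosphorylation, the mitochondrial chain that makes ATP, were lower in the double knockout for 47 of 71 members and higher for none, with a median of -0.34. The difference was modest per gene. ATP5G1 and ATP5B, subunits of ATP synthase, stood at 64 and 1068 CPM in the AGO2 and 29.7 and 639 CPM in the double knockout (differences -1.11 and -0.74). SDHB of complex II was lower by -0.69 and UQCRC2 of complex III by -0.74. Cytosolic ribosomal protein genes were lower for 22 of 68 and higher for none, against 21.0% called lower over all genes, with a median of -0.19 and RPSA lowest at -0.41. Many of these genes have processed pseudogenes that can take their reads.

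Cell cycle genes showed small differences. Of 33 mitosis genes, 11 were called lower and 3 higher (median -0.10), among them the cyclin CCNA2 (-0.58), the anaphase activator CDC20 (-0.49) and securin, PTTG1 (-0.44), all lower. Of 43 DNA replication genes, 8 were lower and 4 higher (median -0.067), with the helicase subunits MCM4 (-0.48) and MCM5 (-0.54) lower and GINS4 (0.56) higher. Neither list was called more often than genes in general, of which 42.7% were called.

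Signalling outputs were mixed, and their counts stand against 21.6% called higher and 21.0% called lower over all genes. Of 18 YAP/TEAD targets, 8 were called higher and 5 lower (median 0.32), and the list held some of the widest differences in both directions. ARHGAP29, an activator of small GTPases, stood at 879 CPM in the AGO2 knockout and 17.4 CPM in the double knockout (difference -5.66, SE 0.31, adjusted p = 8.26e-73), and AXL, a receptor kinase, at 64.3 CPM in the AGO2 knockout and 16.5 CPM in the double knockout (difference -1.96, SE 0.12, adjusted p = 2.59e-55). ANKRD1, a nuclear cofactor, stood at 0.522 CPM in the AGO2 knockout and 102 CPM in the double knockout (difference 7.61, SE 1.73, adjusted p = 7.41e-05), with an error wider than that of the 500 genes nearest in level, and CTGF was higher by 1.72. Of 20 ERK feedback genes, 9 were higher and 2 lower (median 0.22), led by SPRY1 (2.52), DUSP6 (1.78) and ETV4 (1.46), which damp or carry the ERK signal. Of 29 AP-1 and immediate early genes, 11 were higher and 7 lower (median 0.13), with the nuclear receptor NR4A3 (5.22) and EGR3 (2.49) higher. Of 24 TGF-beta pathway genes, 8 were higher and 4 lower (median 0.20): the decoy receptor BAMBI stood at 12.5 CPM in the AGO2 knockout and 254 CPM in the double knockout and the inhibitor SMAD7 at 4.34 CPM in the AGO2 knockout and 25.1 CPM in the double knockout, whereas the coreceptor TGFBR3 was lower by -1.64. Of 19 Notch genes, 6 were higher and 4 lower (median 0.18), with MAML2, a coactivator, highest at 3.57. Of 12 NF-kB genes, 3 were higher and 2 lower (median 0.012), with ICAM1 (1.06) and LIF (1.35, with adjusted p = 0.0637 when the squared errors were summed) higher and NFKB1 (-0.80) lower.

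Of 18 circadian clock genes, 8 were called lower and 1 higher, against 21.0% and 21.6% over all genes (median -0.12, mean -0.31): the output factor DBP stood at 21 CPM in the AGO2 knockout and 7.55 CPM in the double knockout, the repressor BHLHE41 at 10.1 CPM in the AGO2 knockout and 2.68 CPM in the double knockout, PER2 was lower by -0.48, and CLOCK was higher by 0.60. Metabolic and stress lists went both ways. Of 33 genes answering unfolded proteins or amino acid shortage, 9 were higher and 3 lower (median 0.13), with XBP1 at 0.58 and ATF5 at -0.81. Of 31 hypoxia and glycolysis genes, 5 were higher and 8 lower (median -0.051). The glucose transporter genes SLC2A1, at 353 CPM in the AGO2 knockout and 1354 CPM in the double knockout, and SLC2A3, at 0.822 CPM in the AGO2 knockout and 147 CPM in the double knockout, were higher. Among glycolytic enzyme genes, ALDOA (-0.60) and GAPDH (-0.32) were lower, PKM (0.60) was higher and PGK1 (0.12) was not called. Against parental cells, the authors' log2 fold changes were lower in the double than in the AGO2 knockout for HK2 (-0.80 against -0.11) and GPI (-0.57 against -0.089). The same held for ENO1 (-0.51 against -0.14) and LDHA (-0.23 against 0.058), whereas ENO2 (-0.14 against -0.19) went the other way. Of 20 NRF2 targets, 5 were higher and 7 lower (median -0.13): the quinone reductase NQO1 stood at 351 CPM in the AGO2 knockout and 1247 CPM in the double knockout, and ME1 was lower by -0.97. Of 46 lysosome genes, 10 were higher and 6 lower (median 0.0058), with the cathepsins CTSB (1.18) and CTSD (1.22) higher. Of 12 polyamine genes, 4 were higher and 3 lower (median 0.029), with the synthases SRM (-0.96) and SMS (-0.63) lower and AZIN1 (0.67) higher. Of 16 BCL2 family genes, 4 were higher and 1 lower (median 0.048), with the death-promoting BIK (2.22) and BMF (1.93) and the protective BCL2L1 (0.48, with adjusted p = 0.101 when the squared errors were summed) all higher.

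The most negative difference was that of ANXA10, an annexin of gastric epithelium, which stood at 42.2 CPM in the AGO2 knockout and 0.314 CPM in the double knockout (difference -7.07, SE 0.89, adjusted p = 6.83e-14). CYP24A1, the vitamin D degrading enzyme, stood at 139.7 CPM in the AGO2 knockout and 6.06 CPM in the double knockout (difference -4.53, SE 0.66, adjusted p = 1.73e-10), and NR2F1, an orphan nuclear receptor, at 219 CPM in the AGO2 knockout and 13.8 CPM in the double knockout (difference -3.99, SE 0.29, adjusted p = 2.1e-40). CYP24A1 and NR2F1 stood near their parental 135 and 230.3 CPM in the AGO2 knockout, and ANXA10 had 77.8 CPM in the parental line. CPA4, a carboxypeptidase, stood apart, since it was at 3.12 CPM in the parental line, 30.2 in the AGO2 and 1.53 in the double knockout (difference -4.30, SE 0.54, adjusted p = 6.12e-14). TFPI, an inhibitor of blood clotting, was lower by -4.14, the ligand TNFSF18 by -4.52, WNT16 by -3.64, the heparan sulfate enzyme HS3ST1 by -3.88, the membrane protein MALL by -3.63, the receptor GPR110 by -3.88 and RAMP1, a partner of the calcitonin receptor, by -3.53, all on the log2 scale. TNFSF18 was low in both, at 1.3 CPM in the AGO2 knockout and 0.0567 CPM in the double knockout, and passed the filter through the ANKRD52 knockout, at 9.99 CPM.

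Highest in the double knockout above the level of 3 reads were CSMD3, NEDD9 and NRG1. NEDD9, a scaffold of focal adhesions, stood at 0.268 CPM in the AGO2 knockout and 125 CPM in the double knockout (difference 8.86, SE 0.90, adjusted p = 6.09e-21), and NRG1, the ligand of ERBB3, at 0.186 CPM in the AGO2 knockout and 81 CPM in the double knockout (difference 8.76, SE 0.44, adjusted p = 1.19e-85). CSMD3 stood at 0.0807 CPM in the AGO2 knockout and 45.2 CPM in the double knockout. PRF1, the pore protein of cytotoxic lymphocytes, had the highest level of the set, at 2.08 CPM in the AGO2 knockout and 676 CPM in the double knockout (difference 8.34, SE 0.49, adjusted p = 2.86e-61). PLEKHS1 (8.32), EDAR (8.30), KRT14 (7.85), ITGB7 (7.83), GPR55 (7.77), APOBEC3G (7.30) and LOC100505839 (7.20) followed, all from under 1 CPM in the AGO2 knockout. The size of such a difference depends on very few reads in the AGO2 knockout. A further 7 genes called higher lay under the level of 3 reads there, namely ARHGEF38, TSPAN8, HAS2, DSG3, KMO, KCNB2 and GLI3. ARHGEF38 had an implied level of 0.00378 CPM in the AGO2 knockout, taken as no reads. It was at least 338-fold higher in the double, taking 3 reads over the group as the floor.

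Some genes were changed in both knockouts but in opposite directions, as called in the authors' tables. Against parental cells, the authors' deposited tables give CD24, a mucin-like surface protein, -0.99 in the AGO2 and 1.29 in the double knockout. The same deposited tables give MEF2C, a transcription factor, -0.80 and 0.93, the ubiquitin ligase gene RNF122 -0.84 and 0.82, SPTSSB, a subunit of the sphingolipid enzyme, -0.79 and 3.15, and LOC100505839 -1.84 and 5.36. In the other direction, the authors' deposited tables give the laminin gene LAMA4 1.20 in the AGO2 and -1.46 in the double knockout, and NT5E, the ectonucleotidase CD73, 1.03 and -1.88. They also give, as deposited by the authors, ZNF804A 1.003 and -1.60, and SSTR5-AS1 1.09 and -1.22. SSTR5-AS1 is antisense to SSTR5, and the strand setting of the counting is not given in the sources used here.

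Differences were not spread evenly over the chromosomes. Genes were ordered by GRCh38 position and taken in 1088 overlapping runs of 40, whose median differences had a 5th percentile of -0.157 and a 95th of 0.194. On chromosome 7 the 195 genes before position 60000000 had a median of 0.22, with 49 called higher and 14 lower, and the 347 genes after it had a median of -0.20, with 30 higher and 115 lower. The authors' deposited tables place this in the AGO2 knockout, with medians against parental of -0.23 and 0.20 for the 2 parts, against 0.038 and -0.019 in the double. On chromosome 8 the 74 genes from TRAPPC9 to the end, which include AGO2, had a median of 0.28, with 30 called higher and 1 lower. In the authors' deposited tables their median was -0.54 in the AGO2 and -0.26 in the double knockout, so genes beside AGO2 were lower than parental in both. The highest run lay on chromosome 19 from EMC10 to TPM3P9 (50476400 to 53444670), with a median of 0.52 and 25 of 40 genes called higher. GRHL2, the epithelial factor described above, opens the highest run of chromosome 8, whose median was 0.39. DNA copy number was not measured, and its part in these runs was not tested.

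**Figure D5:**
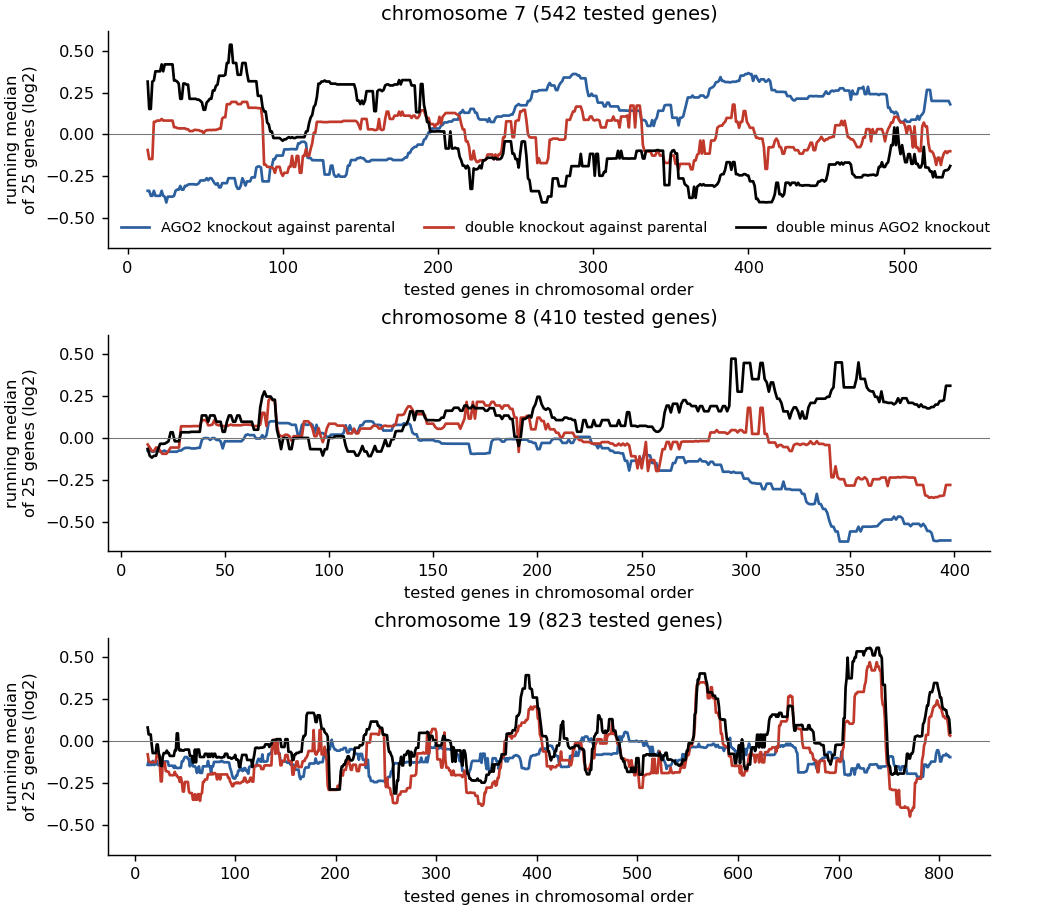
Lines are running medians of 25 genes in chromosomal order for chromosomes 7, 8 and 19, in log2 units, with the AGO2 knockout against parental in blue, the double knockout against parental in red and their difference in black. The blue line runs below 0 on the first part of chromosome 7 and above 0 on the rest and falls towards the end of chromosome 8, while on chromosome 19 it is the red line that rises in the stretch with the highest difference.

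Of 9 markers of colorectal epithelium, 7 were in the tables and 6 were compared, with 5 of them called higher in the double. The 6 were present in both knockouts. VIL1, the marker not compared, stood at 0.0243 CPM in the AGO2 knockout, under the level of 3 reads, and 2.92 CPM in the double. Summed over 7 markers in the tables, the level was 3421 CPM in the AGO2 and 8697 CPM in the double knockout, against 3316 CPM in the parental line. The keratin gene KRT8 alone gave 1660 and 4412 CPM of the 2 knockout sums. Markers of other cell types were low: 3 of 12 fibroblast and endothelial markers were in the tables, with a sum of 13.6 CPM in the AGO2 and 19.1 CPM in the double knockout, 2 of 10 blood markers with 6.57 and 9.7 CPM, and 3 of 9 neural and muscle markers with 4.61 and 13.3 CPM. Within these, LYZ (5.10) and DES (2.19) were called higher and CD68 (-2.56) lower in the double knockout, while COL1A1 (0.18) and SNAP25 (-0.042) were not called. Their part in the differences above was not tested.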

How the data were processed

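PolyA RNA was sequenced from 12 HCT116 libraries, 4 groups of 3 labelled replicates, made with a stranded kit, per the labels' protocols. Tools named in the submitters' processing notes are edgeR 3.8.6, featureCounts 1.4.6 and TopHat2 2.0.12, with the build hg19; their roles are not given. The deposited tables, 1 for each knockout against the parental line, hold log2 fold changes and mean log2 CPM values computed by the authors, a likelihood ratio score made by the authors, and p-values with adjusted values as deposited. No table gives a value per library, so depth is unknown and the intended count test could not be used.

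Dividing each absolute fold change (log2) by the root of its likelihood ratio gave an approximate SE. The variance of a difference was the mean of both squared SEs. Before squaring, both SEs of a gene differed by under 10 percent for 99.4% of genes. Where the ratio was near 0 the other table's SE was used. The procedure was run on simulated data drawn under its own assumptions of normal errors and equal variance in the groups. That run could not show how it performs on these counts. Genes listed without reads put an empty group at 0.00388 CPM, and, assuming edgeR's prior count of 0.125, 3 reads over a group at 0.0349 CPM. Apart from a bound for ARHGEF38, no fold between the double and the AGO2 knockout is printed for a gene under that level in either. Folds deposited by the authors and list means were not cut at that level.

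Named were the targeted genes, the 15 largest called differences each way, up to 4 called members with the smallest p per list, and the 5 most opposite genes each way. Other genes were named after their values were seen, and some genes the rule named are not reported here. Members, the 41 lists and this rule were chosen with earlier results of these data known. 3′ UTRs and gene order came from GENCODE 29 (GRCh38), where 11108 compared genes matched by symbol and 551 through RefSeq synonyms, leaving 218 without a position. Alternatives were other variances, a t distribution, thresholds, filters, centring and site definitions. Work used Python with numpy, scipy, pandas and matplotlib.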

Additional observations from a re-analysis of the deposited data

Results flagged for a closer look

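Among the 30 genes with the largest differences between double and AGO2 knockout, 7 also differed from parental cells in the ANKRD52 knockout by at least 1 on the log2 scale with a deposited adjusted p under 0.05, a table that the comparison does not use for its tests. In the authors' deposited table of the ANKRD52 knockout, GPR55 had a log2 fold change of 7.28, APOBEC3G of 5.84 and ANKRD1 of 5.64. GPR55 and APOBEC3G stood at 0.00378 and 0.0251 CPM in the parental line, under the level of 3 reads, so the size of these folds is uncertain. The same authors' deposited table gives TNFSF18 3.35, PLEKHS1 2.87, PRF1 2.77 and SLC2A3 1.73. Of these genes TNFSF18 was lower and the other 6 were higher in the double than in the AGO2 knockout.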

How the results depend on the processing

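Of the counts of genes that differed, 2646 remained past the threshold when the squared SEs were summed (1444 higher and 1202 lower), and 932 when a difference of at least 1 was also asked for (703 higher and 229 lower). With a t distribution of 8 degrees of freedom 1605 genes were lower. The larger of both SEs, an adjusted p under 0.01, no filter on expression, a mean of at least 3 log2 CPM, centring on the median and leaving out distal chromosome 8 left each count within 1.5 times its value. CSNK1A1 and ANKRD52 kept their calls under every alternative run for them, and AGO2, with an unchanged difference of 1.05, lost its call with summed SEs and with the t distribution. Of the single genes examined besides, 30 lost their call with summed SEs and 196 held their side of the threshold; with the t distribution 21 lost it and 205 held. The direction of named genes was not put to a test. Among the alternatives run for single genes only centring altered a difference, by the median over all genes of -0.0011.

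When means replaced medians, a list's value turned sign for casein kinase 1 genes (-0.25), p53 regulators (-0.082) and hypoxia and glycolysis genes (0.27). It shifted for sterol genes (-0.84), epithelial (0.71), mesenchymal (1.38) and intestinal genes (3.05), YAP/TEAD targets (0.021), miR-19 (0.26) and miR-21 targets (0.41), AP-1 (0.47), ERK feedback (0.50), TGF-beta (0.59), Notch (0.42), BCL2 family (0.29) and circadian genes (-0.31). The mesenchymal and intestinal means include HAS2 and TSPAN8, which lay under the level of 3 reads in the AGO2 knockout. With a mean level of at least 3 log2 CPM, the median of the PP6 genes was -0.19, of interferon-stimulated genes -0.50, of intestinal genes 1.56 and of polyamine genes -0.17, the last turning sign. Limiting the genes to the middle tercile of UTR length and GC content turned the seed match values to -0.0024 for expressed and -0.0059 for control families. Beyond the construction of each alternative, the cause was not tested.

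No paired analysis was possible because the tables hold no values per library, and a replicate block or a left-out replicate was not run. Depth and spread within a group were not examined, and genes near 0 reads in 1 group have differences that rest on few reads.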

Other observations

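Zinc finger genes named ZNF, a family of DNA-binding repressors that lies in clusters on several chromosomes, were higher in the double knockout more often than lower. This group was chosen after its values were seen. Of 357 such genes placed on GRCh38, 144 were called higher and 23 lower, against 21.6% and 21.0% over all genes, with a median difference of 0.26. In the chromosome 19 run with the highest median, 23 ZNF genes had a median of 0.54, with 19 called higher and none lower, and the 17 other genes of the same run had a median of -0.011, with 6 higher and 2 lower. The 334 ZNF genes elsewhere had a median of 0.22, with 125 higher and 23 lower. Against parental cells the authors' deposited tables give the 357 genes a median of -0.085 in the AGO2 and 0.14 in the double knockout. ZNF genes share sequence with one another, so reads may be split among them.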
